A study of Arabidopsis thaliana with 24 samples.

Results

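The comparison described here sets roots sampled 1 h after salt was added against roots sampled 0.5 h after it, across every probe set that passed a filter on low signals. It rests on 4 of the 24 arrays of the study, 2 for each time, chosen by tissue and time in the sample labels and not by any measured value. The plants were Arabidopsis thaliana of the reference accession Col-0, grown on Murashige and Skoog medium on rafts under 16 h days, and roots and shoots were harvested separately. On day 16, after 3 h of light, the raft of each box was lifted out, sodium chloride was stirred into the medium to 150 mM and the raft was put back, so that all arrays come from plants that had been lifted and salted. The shoots of the same 2 times, 2 arrays each, serve below as the comparison tissue. Untreated plants were not analysed here, and what happened before 0.5 h is not visible in these values. Time after salt, recovery from handling and time of day therefore cannot be told apart. The labels do not state whether both arrays of a time came from separate cultures, so the spread between paired arrays may be technical. The p-values use a spread within groups that is shared over all 24 arrays, not that of the 4 root arrays alone.

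Salt in the medium stresses a root both by withdrawing water and by loading its cells with sodium ions. The first known events are calcium and oxygen radical signals, which switch on fast transcription factors of the DREB and ERF, zinc finger and WRKY families together with calmodulin-like calcium sensors. Many of these genes also answer touch, wounding and jasmonate. Abscisic acid then accumulates and turns on a slower set of genes for dehydrins and other late embryogenesis abundant proteins, which are thought to protect cells that lose water. Arrays of whole roots cannot tell fewer cells of a type from less RNA per cell.

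The probe sets that passed the test between 0.5 and 1 h were few, and nearly all of them were higher at 1 h. Of 15199 probe sets tested, 57 were higher at 1 h (0.375%) and 2 were lower (0.0132%). A call required an adjusted p under 0.05 in limma's moderated test, with Benjamini-Hochberg adjustment, and a difference of at least 2-fold. Differences are given as log2 ± SE, taken on log2 of signal + 2.205, a scale on which dim genes show less than their full change. The 57 higher probe sets differed by 1.01 to 2.60, with a median of 1.43, and 34 of them lay under 3-fold while 7 exceeded 4-fold. Their median signal was 70.4 at 0.5 h and 200.2 at 1 h, and the median difference over all probe sets was -0.07. In 17 of the 57 the mean signal at 0.5 h lay under 41.7, the level used to filter probe sets. The size of those rises is less certain. Without the p limit, 326 probe sets were at least 2-fold higher and 52 at least 2-fold lower. At an unadjusted p under 0.05, 748 were higher (4.92%) and 606 lower (3.99%), so the one-sided count holds for the calls and not for all small differences. These shares apply to each unadjusted count of list members below.

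All 57 had both arrays of 1 h above both arrays of 0.5 h, as had 19.2% of all probe sets tested. Both fallers had the arrays of 1 h below those of 0.5 h, as had 32.3% of all. The calls were made on these same arrays, so their separation largely follows from the call and adds no support to it. With 2 arrays against 2, an exact permutation test of a single gene cannot go below a two-sided p of 0.333. The reported calls therefore use a spread pooled over groups, to which the other 20 arrays contribute. The count moved with the arrays that entered that pool. With only the 4 root arrays of these times in the fit, 219 probe sets were higher and 15 lower. That fit still called 53 of the 57 risers and 1 of the 2 fallers. The 2 root arrays of 12 h correlated with each other at Pearson r = 0.857 and differed by 2-fold or more at 19.1% of probe sets, against 1.88% for the pair of roots at 0.5 h and 1.21% for the pair at 1 h. Without both root arrays of 12 h, 175 probe sets were higher (1.15%) and 17 lower (0.112%), and these included all 57 and both fallers. Leaving out 1 root array of 12 h at a time gave 174 and 178 higher. Leaving out 1 array of 0.5 h left 15 or 12 higher, and leaving out 1 array of 1 h left 14 or 6, for replicate 1 and replicate 2 in that order each time. The lower count was 1 without roots 1 h replicate 1 or without any 1 of the 8 shoot arrays of 0.5, 1, 6 and 24 h, and 4 without any 1 array of roots 6 h or shoots 12 h.

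Of the 59 probe sets that passed (0.388%), 24 pair with 1 gene in the annotation used, 30 with none and 5 with several. Among the 24, 5 carry a gene symbol and 19 only a locus code. Only 4 of the 59 passed the test under all of the 36 other fits run, and these included GTR1 and CCR2. The other two pair with no gene here, and one of them had the lowest p of all, with a difference of 2.14 ± 0.16 (adjusted p = 4.93e-06 by limma).

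GTR1 (AT3G47960), a plasma membrane transporter that moves glucosinolates between tissues, rose clearly. Its signal was 179 and 159 on the 2 arrays of 0.5 h and 409 and 510 on those of 1 h. Both later arrays lay far above both earlier ones, and the difference was 1.43 ± 0.16 (adjusted p = 0.00109 by limma). In shoots the same gene differed by -0.26 between the same times. The root change exceeded the shoot change by 1.68 ± 0.23 (adjusted p = 0.00107 for the interaction). Leaving out any 1 of the 4 root arrays kept the difference between 1.27 and 1.59.

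CCR2 (AT1G80820), a cinnamoyl-CoA reductase of the lignin branch that is known for its response to pathogens, rose about as firmly. In roots its signal was 191 and 183 at 0.5 h and 579 and 511 at 1 h, a rise of 1.53 ± 0.18 (adjusted p = 0.00109 by limma). In shoots it was dim at both times, with signals of 9.55 and 5.66 at 0.5 h, then 1.67 and 2.06 at 1 h. All of these lay under 41.7, the level used to filter probe sets, so no size is read from the shoot difference. Without 1 root array at a time the root difference of CCR2 ranged from 1.44 to 1.62.

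The remaining risers with a symbol were scpl30 and CCT2. The gene scpl30 (AT4G15100) encodes a serine carboxypeptidase-like protein. It started low, with signals of 11.3 and 14.5 at 0.5 h, and reached 39.9 and 57.2 at 1 h, a rise of 1.74 ± 0.35 (adjusted p = 0.0368 by limma). CCT2 (AT4G15130), an enzyme that makes the activated choline used to build phosphatidylcholine, a main membrane lipid, had signals of 79.7 and 70.4 at 0.5 h and 165 and 156 at 1 h. It rose by 1.08 ± 0.20 (adjusted p = 0.0203). In the TAIR10.1 gene table these genes lie on the same chromosome with 2 protein-coding genes between them. Neither passed the test when any 1 of its own 4 arrays was left out. The call of scpl30 was also lost with no filter (adjusted p = 0.0531) and with a pseudocount of 16 (adjusted p = 0.0749), and CCT2 fell under 2-fold with the latter.

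The faller with a symbol was ECS1 (AT1G31580). Its root signal went from 26.5 and 14.8 at 0.5 h to 7.61 and 7.30 at 1 h. The difference was -1.19 ± 0.23 (adjusted p = 0.0303 by limma). All of these root signals lay under 41.7, the level used to filter probe sets, so the size of the fall is uncertain. ECS1 passed in 30 of the 36 other fits. Its call was lost with a pseudocount of 16 (-0.63, adjusted p = 0.164) and with only root arrays in the fit (adjusted p = 0.277). The call was also lost with only the arrays of 0.5 and 1 h (adjusted p = 0.12). In shoots the same probe set read from 4774 to 6917, far above the root signal. The summed signal of 6 shoot markers, mostly photosynthesis genes, was 281 and 365 in roots at 0.5 h and 243 and 311 at 1 h, against 21624 to 25748 in shoots. The part of shoot RNA in the fall of ECS1 was not tested. The second faller pairs with no gene and fell by 1.19 on the log2 scale (adjusted p = 0.0384).

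**Figure D1:**
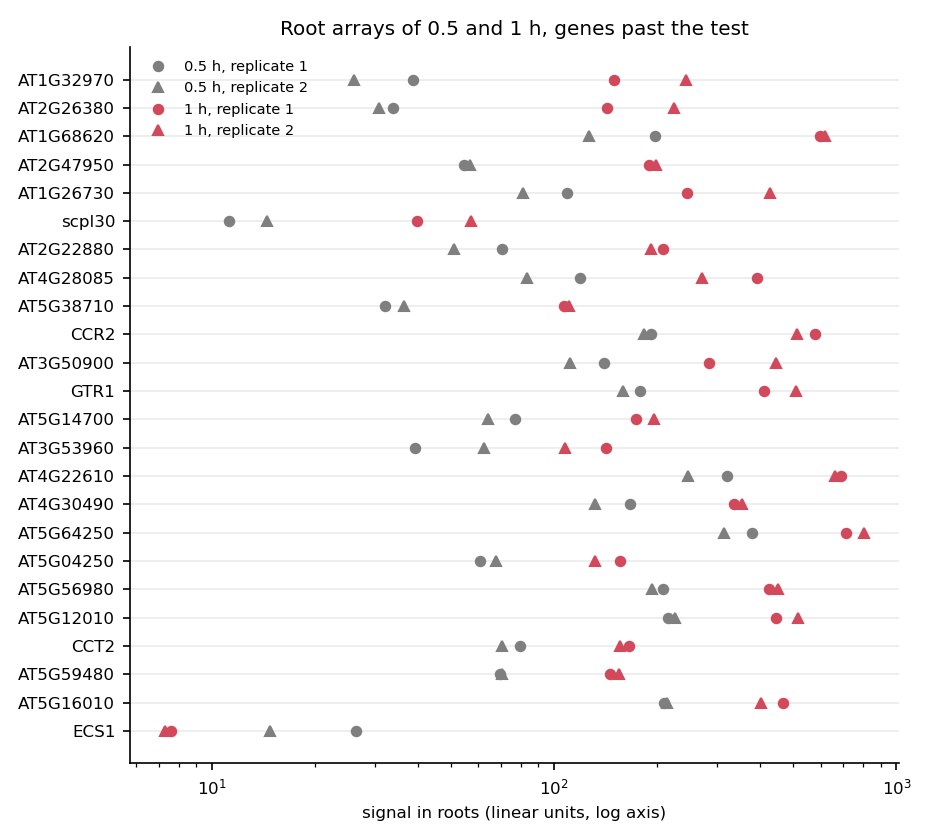
Signals on the 4 root arrays (log axis, linear signal units) for the 24 genes that passed the test, ordered by their difference. Grey marks are the arrays of 0.5 h and red marks those of 1 h, circles for replicate 1 and triangles for replicate 2. In the 23 risers both red marks lie right of both grey ones, and in ECS1 both lie left.

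The 19 locus codes all rose, and most are not described by a name in the annotation used. AT1G32970 had signals of 38.7 and 26.0 at 0.5 h and 150 and 243 at 1 h. It had the highest difference of any called single gene, 2.50 ± 0.40 (adjusted p = 0.00795 by limma). AT2G26380 read 33.8 and 30.8 and then 142 and 223, a rise of 2.39 ± 0.36 (adjusted p = 0.00581). AT1G68620 read 198 and 126 and then 596 and 620, a rise of 1.93 ± 0.37 (adjusted p = 0.0233). No other called probe set of 1 gene passed 1.9 on the log2 scale. The highest called difference, 2.60 ± 0.46, belongs to a probe set that pairs with several genes and is not named.

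A further group of locus codes rose by 1.49 to 1.76. AT2G47950 read 54.6 and 56.7 at 0.5 h and 190 and 198 at 1 h (1.76 ± 0.36), and it lost its call with a pseudocount of 1 (adjusted p = 0.107) and with no filter (adjusted p = 0.0531). AT1G26730 read 109 and 81.3 and then 244 and 428 (1.76 ± 0.35), with the later arrays much farther apart than the earlier ones. AT2G22880 differed by 1.70 ± 0.30, AT4G28085 by 1.68 ± 0.32, AT5G38710 by 1.61 ± 0.24 and AT3G50900 by 1.49 ± 0.22. Of these, AT3G50900 had its later arrays at 283 and 444, and AT5G38710 at 107 and 111. The adjusted p of this group lay between 0.0056 and 0.0368 by limma.

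The 10 smaller risers known by locus code lay between 1.03 and 1.37 on the log2 scale. AT5G14700 read 76.7 and 64.0 at 0.5 h and 174 and 195 at 1 h, a difference of 1.37 ± 0.19 (adjusted p = 0.00362 by limma). AT5G59480 read 69.5 and 70.6 and then 145 and 155, a rise of 1.07 ± 0.15 with the same adjusted p. It lost its call in 2 of the 36 fits, the fewest after GTR1 and CCR2 among single genes. AT5G64250 was the brightest, at 378 and 314 and then 711 and 805 (1.13 ± 0.16). AT5G16010 was the weakest call, at 209 and 214 and then 465 and 402 (1.03 ± 0.22, adjusted p = 0.0436), and passed in 13 of the 36 fits. The other 6, AT3G53960, AT4G22610, AT4G30490, AT5G04250, AT5G56980 and AT5G12010, differed by 1.28, 1.26, 1.20, 1.13, 1.12 and 1.11 in that order. With only root arrays in the fit, 15 of the 24 single genes lost their calls, among them AT1G32970, AT2G26380, AT5G14700 and AT5G64250.

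Levels at the later times are given as a description, since they share the arrays of 0.5 h with the comparison that chose the genes. The highest root mean fell at 1 h in 7 of the 57 risers. It fell at 3 h in 20, at 6 h in 23, at 12 h in 1 and at 24 h in 6. The median difference from 0.5 h over the 57 was 1.43 at 1 h, 2.18 at 3 h, 2.06 at 6 h, 1.23 at 12 h and 1.12 at 24 h. Over all probe sets tested the same medians were -0.07, -0.19, -0.21, -0.11 and -0.14. At least 2-fold above the 0.5 h mean were 50 of the 57 at 3 h, 49 at 6 h, 33 at 12 h and 33 at 24 h, against 9.22%, 11.6%, 8.22% and 9.13% of all probe sets. By 24 h, 7 of the 57 lay below their 0.5 h mean.

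The time courses of single genes differed in height and in duration. The mean signal of scpl30, 12.9 at 0.5 h and 48.5 after 1 h, reached 577 by 3 h and 650 by 6 h, and had returned to 39.7 at 24 h. AT2G26380 climbed to 1713 at 6 h and stood at 373 at 24 h, above its start of 32.3. AT1G32970 reached 706 at 6 h and was back at 32.6 at 24 h, about where it began. CCR2 peaked at 887 at 3 h, and GTR1 held 685 at 3 h and 636 at 6 h before it was back at 176 at 24 h. CCT2 was among the few with the highest mean at 1 h: its signal of 160.5 there declined to 132 by 3 h, then to 87.4 by 6 h, and was 64.4 after 24 h. AT4G22610 likewise had its highest mean at 1 h, at 675, with 448 at 3 h.

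**Figure D2:**
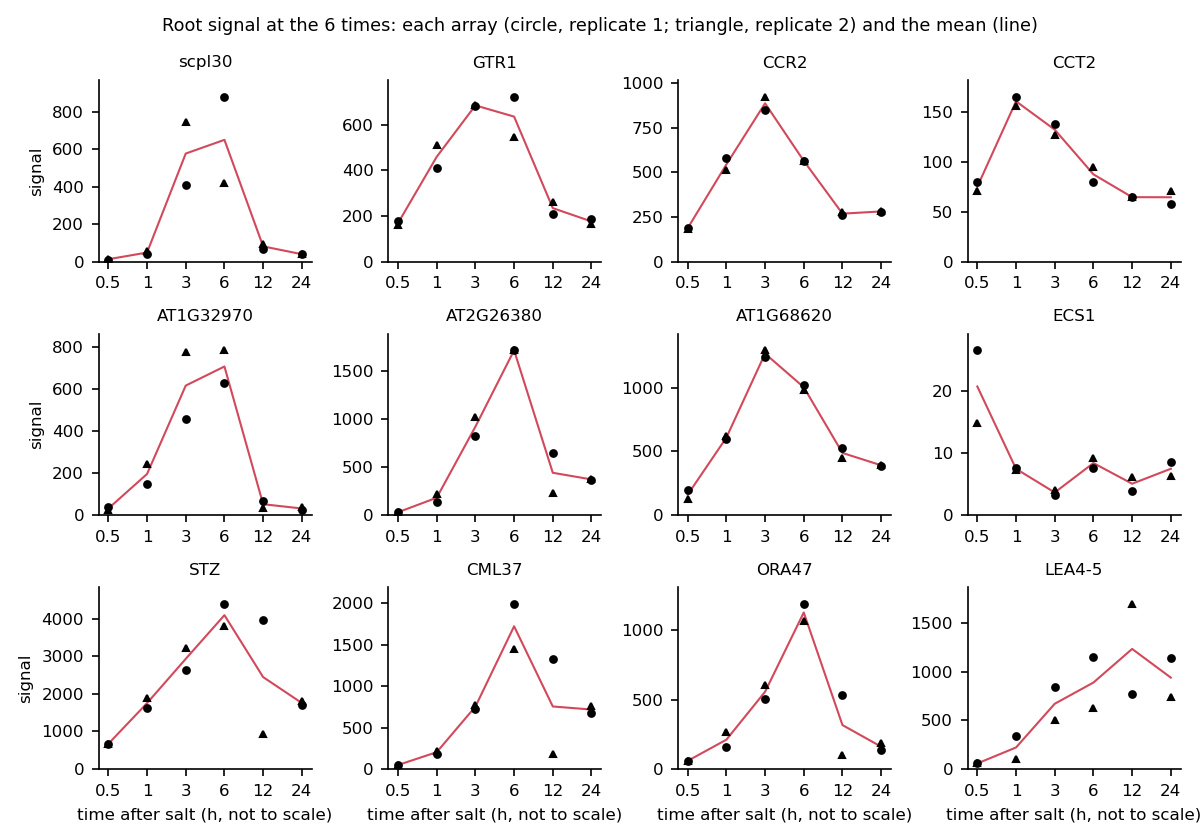
Root signal (linear units, each panel from 0) against time after salt for 12 genes, with replicate 1 as circles, replicate 2 as triangles and the mean as a line. The 7 risers in the upper panels climb from 0.5 to 1 h and mostly peak at 3 or 6 h, CCT2 peaks at 1 h, and ECS1 drops. STZ, CML37, ORA47 and LEA4-5, which did not pass the test, also read higher at 1 h. The arrays of 12 h lie far apart for several genes, among them STZ, CML37, ORA47 and AT2G26380.

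The few fast transcription factors measured mostly read higher at 1 h but did not pass the test. Measured were 4 of the 64 DREB and ERF factors listed, 3 of the 12 zinc finger factors and 5 of the 67 WRKY factors. Their values therefore do not stand for the whole families. The lists here and below were chosen with earlier results of these data known. Their medians and shares are therefore descriptions and not tests. Among the 4 measured DREB and ERF factors, 0 were called by limma (3 higher at an unadjusted p under 0.05), the median difference was 1.53, and 3 of 4 had both later arrays above both earlier ones, against 19.2% of all probe sets. On this list AT1G22810 had signals of 5.71 and 7.97 at 0.5 h and 25.9 and 45.9 at 1 h (2.03 ± 0.77, adjusted p = 0.401 by limma). ORA47, a regulator of jasmonate synthesis, read 59.1 and 59.1 and then 156 and 267 (1.75 ± 0.51, adjusted p = 0.196). AT1G19210 differed by 1.31, and TINY2 by -0.66 at signals under 10.

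The 3 measured C2H2 zinc finger factors had a median of 1.38 and 0 calls, with 2 higher at an unadjusted p under 0.05. STZ, a zinc finger repressor named for the salt tolerance it gave to yeast, was bright, at 676 and 666 at 0.5 h and 1614 and 1891 at 1 h. Its difference of 1.38 ± 0.50 carried an adjusted p of 0.379, and its root arrays of 12 h read 3964 and 926. AT3G53600 from the same list read 22.8 and 9.34 and then 70.8 and 135 (2.56 ± 0.75, adjusted p = 0.20). The 5 measured WRKY factors had a median of 0.32, with 0 calls and 2 higher at an unadjusted p under 0.05. These were WRKY6 at 1.23 (adjusted p = 0.463) and WRKY53, which read 163 and 145 and then 359 and 267 (adjusted p = 0.52), both of them regulators in senescence and defence.

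Calcium sensors and touch genes were mixed, with 0 of 11 called, 2 higher at an unadjusted p under 0.05 and a median of 0.19. Of the 11, 5 had both later arrays above both earlier ones, against 19.2% of all probe sets. The calmodulin-like CML37 read 54.3 and 43.8 at 0.5 h and 186 and 222 at 1 h (2.01 ± 0.68, adjusted p = 0.323 by limma). CML42 went from 53.5 and 70.5 to 134 and 126 (1.05 ± 0.29, adjusted p = 0.145) and CML38 from 208 and 114 to 329 and 346 (1.12, adjusted p = 0.562). In all, 4 of the 11 differed by 1 or more on the log2 scale, and the others lay between -0.59 and 0.20, among them CML23 at 0.20 and the glutamate receptor-like channel gene GLR3.3 at 0.19.

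Without both root arrays of 12 h, several of these genes passed the test with the same differences and smaller errors. They were AT1G22810 (adjusted p = 0.0424 by limma), ORA47 (0.00404), STZ (0.0456), AT3G53600 (0.0389), CML37 (0.0358) and CML42 (0.0135). That made 2 of the 4 DREB and ERF factors, 2 of the 3 zinc finger factors and 0 of the 5 WRKY factors. Of the 11 calcium sensors and touch genes, 2 passed as higher. Of all probe sets, 1.15% were called higher in that fit. Beyond the 24 genes above, 57 single-gene probe sets were higher and 10 lower in that fit. Among these, and chosen after their values were seen, AR781 differed by 1.56 (adjusted p = 0.019) and NAMT1, a methyltransferase of nicotinate, by 1.54 (0.0275). APS3, an ATP sulfurylase of sulfate assimilation, differed by 1.39 (0.0019). Further such genes were GH9B8 of the cellulase family at 1.22, the U-box ubiquitin ligase PUB24 at 1.18, the glycosyltransferase UGT73B4 at 1.12 and IAGLU, which attaches glucose to auxin, at 1.01. Lower in that fit were ACT11, an actin, at -1.04 (0.0289) and AT3G49960, on the root hair list, at -1.93 (0.0315).

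Targets of abscisic acid and osmotic stress had 0 calls among the 14 measured, with a median of 0.56 and 11 above 0. At an unadjusted p under 0.05, 4 were higher and 1 lower. Of the 14, 7 had both later arrays above both earlier ones, against 19.2% of all probe sets. LTI30, a dehydrin, was already bright at 0.5 h, at 2106 and 1742, and read 3681 and 3026 at 1 h (0.80 ± 0.18, adjusted p = 0.0639 by limma). LEA4-5, a late embryogenesis abundant protein gene, read 58.1 and 57.8 and then 337 and 107 (1.68 ± 0.58, adjusted p = 0.336), so 1 array of 1 h carried most of the difference. AT3G02480 read 26.4 and 22.9 and then 99.5 and 78.2 (1.76, adjusted p = 0.401), and its root mean reached 2359 at 12 h. COR15A, a chloroplast protein known from cold, read 1.30 and 6.41 and then 7.50 and 23.3 (1.52, adjusted p = 0.647), all low signals. XERICO, a RING protein that raises abscisic acid levels, went the other way, from 311 and 303 to 188 and 200 (-0.66 ± 0.15, adjusted p = 0.0848). Its 4 arrays did not overlap between times, and its mean stayed between 141 and 198 at all later times.

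Jasmonate synthesis and response had 3 measured members, including ORA47, with 0 calls and a median of 0.90, the value of OPCL1, a ligase in jasmonate synthesis. The remaining member, JRG21, went the other way, at -0.39. The auxin list had 0 calls of 9 and a median of 0.03. IAA18, an auxin response repressor, read 138 and 143 and then 198 and 242 (0.63 ± 0.14, adjusted p = 0.0577), and GH3.3, which conjugates auxin to amino acids, 895 and 746 and then 1643 and 2026 (1.16 ± 0.63, adjusted p = 0.68). In the clock list COR27, a cold-regulated clock gene, differed by 1.25 at signals under 10, with 0 of 3 called. The other clock members, AT4G33980 and GI, differed by 0.31 and 0.03. At an unadjusted p under 0.05, 1 member was higher in each of the jasmonate, auxin and clock lists. Ubiquitin ligases of the U-box and RING kind had 0 calls of 11 (4 higher and 1 lower unadjusted) and a median of 0.55. Of the 11, 7 had separate arrays upward, against 19.2% of all probe sets, among them PUB23 at 0.88 and ATL5 at 0.86.

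Metabolic and wall lists had medians between -0.16 and 0.32, with 2 calls in all. The phenylpropanoid list held 1 riser of 4, CCR2, with a median of 0.32, and the glucosinolate list 1 riser of 5, GTR1, with a median of 0.29. UDP-glycosyltransferases, which attach sugars to hormones and secondary compounds, had 0 calls of 33 (7 higher and 1 lower unadjusted) and a median of 0.12. Of the 33, 13 had both later arrays above both earlier ones, against 19.2% of all probe sets. On this list UGT73B5 read 115 and 103 and then 386 and 357 (1.75 ± 0.53, adjusted p = 0.229 by limma). UGT87A2 differed by 0.88 (adjusted p = 0.0763 by limma). Expansins and xyloglucan enzymes, which loosen cell walls, had 0 calls of 19, also unadjusted, and a median of 0.23. Cytochrome P450s had a median of 0.14 over 13, sugar transporters 0.10 over 11, glutathione transferases -0.14 over 12, and the mitochondrial stress genes -0.16 over 4, each with 0 calls. Unadjusted, 1 member was higher and 1 lower in the P450 and the sugar lists, 1 higher and 2 lower among the glutathione transferases, and 1 higher among the mitochondrial genes. In the last list NDB2, an external NADH dehydrogenase, read 275 and 302 and then 588 and 485 (0.88, adjusted p = 0.382).

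The cell cycle, photosynthesis, root hair, histone, and tubulin and actin lists had medians slightly below the -0.07 of all probe sets, with 0 calls in each. The expansin and xyloglucan list, also tied to growth, had a median of 0.23. At an unadjusted p under 0.05, 1 member was lower in each of the cell cycle, photosynthesis, root hair, and tubulin and actin lists, and 0 among histones, heat shock and autophagy genes. All 4 measured cell cycle and mitosis genes had both later arrays below both earlier ones, against 32.3% of all probe sets. They were the Aurora kinases AUR2 at -0.53 and AUR1 at -0.39, topoisomerase TOPII at -0.46 and the spindle checkpoint gene BUB3.1 at -0.37, around a median of -0.43. Nuclear photosynthesis genes had a median of -0.35 over 6, at root signals far below those of shoots. Root hair genes had a median of -0.24 over 5, tubulins and actins -0.17 over 8 and histones -0.20 over 5. Both later arrays lay below both earlier ones in 2 of 6 photosynthesis and 2 of 5 root hair genes. The same held for 3 of 8 tubulins and actins and 0 of 5 histones, against the same 32.3%. Heat shock proteins, at 0.03 over 7, and autophagy genes, at 0.02 over 10, lay near 0, and the heat shock list included ATHSP22.0 at -1.04 with 1 array of each time alike (8.70 and 8.73).

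The largest differences downward among genes with a symbol and separate arrays did not pass the test apart from ECS1. SWEET11, a sucrose exporter, met the p limit but not the fold limit, at 20.1 and 19.9 and then 10.8 and 8.12 (-0.94 ± 0.19, adjusted p = 0.0368 by limma). GSTU27, a glutathione transferase, read 166 and 170 and then 78.7 and 95.4 (-0.93 ± 0.21, adjusted p = 0.0713). The plastid gene ndhF differed by -1.27, the IQ-domain gene IQD24 by -1.08, ACT11 by -1.04, LHCB4.2, an antenna protein, by -1.01, UGT85A5 by -0.99 and XTH16 by -0.84, with adjusted p from 0.139 to 0.768. The reference genes GAPC2 and AT4G34270 differed by -0.14 and -0.13.

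Of the 35 lists, 24 had at least 3 measured members. Many of these were measured only in part, such as 11 of 88 calcium sensors and touch genes and 13 of 225 cytochrome P450s. The lists of abscisic acid synthesis and signalling, of sodium transport and the SOS pathway, of MYB factors, of antioxidant enzymes, of aquaporins and of nitrate and phosphate uptake had 0 measured members among the single-gene probe sets, and nothing can be read about them here. Ethylene, gibberellin, cytokinin, NAC and ribosomal protein lists had 1 or 2 measured members and 0 calls, also unadjusted.

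**Figure D3:**
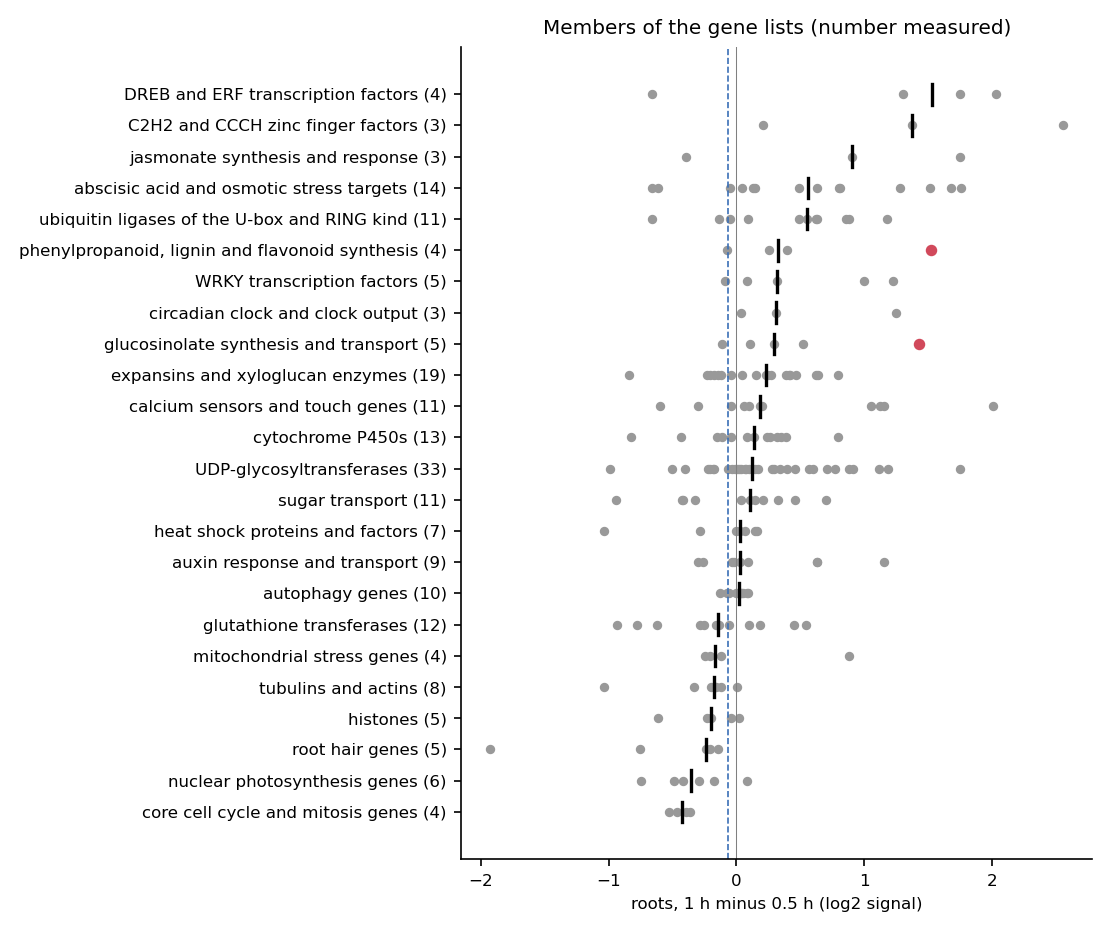
Log2 difference between 1 h and 0.5 h in roots for each measured member of the 24 gene lists, with the number measured in brackets. Grey points did not pass the test, red points did, black bars are list medians, and the dashed line is the median of all probe sets at -0.07. The 2 red points are CCR2 and GTR1.

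In shoots the same interval looked different. There 71 probe sets were higher (0.467%) and 265 were lower (1.74%) of the 15199. Of the 57 root risers, 1 passed as higher in shoots, AT2G47950, and 4 as lower, CCR2, AT1G68620, AT4G28085 and AT3G53960. Of these 5, AT3G53960 alone had shoot signals above the filter level of 41.7, and the others were dim in shoots. AT2G47950 read 0.73 and 5.55 there at 0.5 h, then 12.9 and 10.7 at 1 h. The median shoot difference of the 57 was -0.01, and 28 of them lay above 0. Of the 265 shoot fallers, 126 lay above 0 in roots, their root median was -0.02, and 4 were higher in roots by the test. Of the 71 shoot risers, 50 lay above 0 in roots, with a median of 0.08.

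The test of the difference itself, root change minus shoot change, found 188 probe sets higher in roots (1.24%) and 31 lower (0.204%). Of the 188, 128 passed as lower in shoots, 22 passed as higher in roots, 4 of these did both, and 42 did neither. Over the 188 the median difference was 0.37 in roots and -1.50 in shoots. AT1G68620 was among the 22, with dim shoot signals of 25.5 and 18.2 and then 3.26 and 2.05. The 219 calls of the interaction became 117 and 79 when roots 0.5 h replicate 1 or 2 was left out, and 104 and 103 for roots 1 h. They became 76 without shoots 0.5 h replicate 2, 104 without shoots 1 h replicate 2, and 506 or 508 without 1 root array of 12 h. For shoots alone, 336 calls became 150 and 165 when replicate 2 was dropped from 0.5 h or from 1 h.

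**Figure D4:**
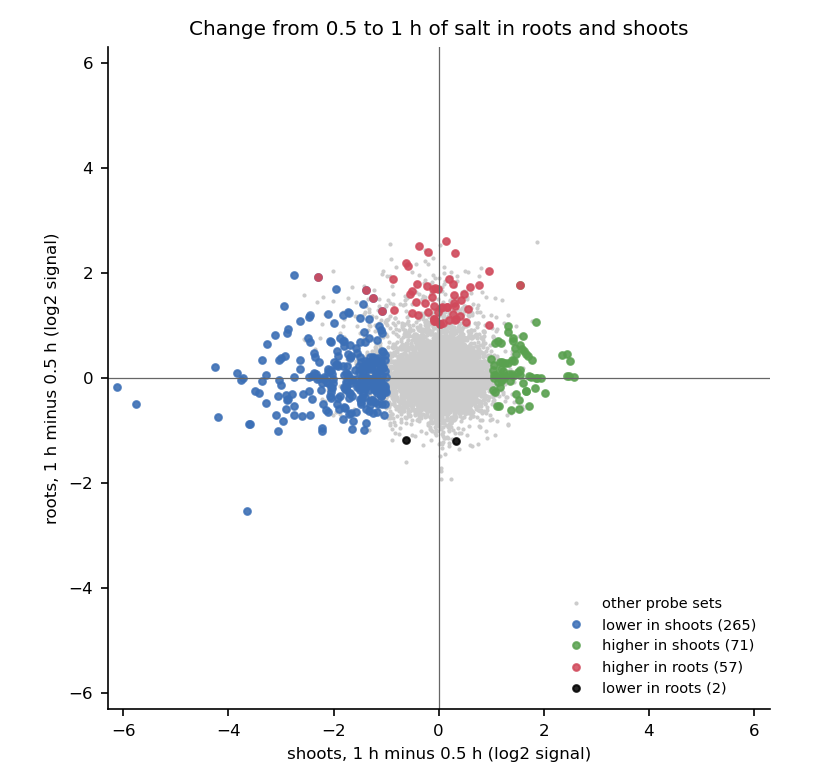
Log2 difference between 1 h and 0.5 h in roots (vertical) against shoots (horizontal) for 15199 probe sets. Coloured points passed the test in the tissue named, with counts in the legend. The 57 root risers spread on both sides of 0 in shoots, while the 265 shoot fallers spread around 0 in roots.

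Markers matched the tissue labels. The summed signal of the 2 root markers measured, mainly PYK10, a root beta-glucosidase, ran from 3080 to 3474 in roots and from 425 to 606 in shoots. Root arrays of the same time correlated at r = 0.979 at 0.5 h and 0.984 at 1 h, and those of different times at 0.966 to 0.968, over 15199 probe sets. Every array had the same trimmed mean, 100.01, and the number of arrays limits the precision, with a median SE of 0.22 for a root difference.

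**Figure D5:**
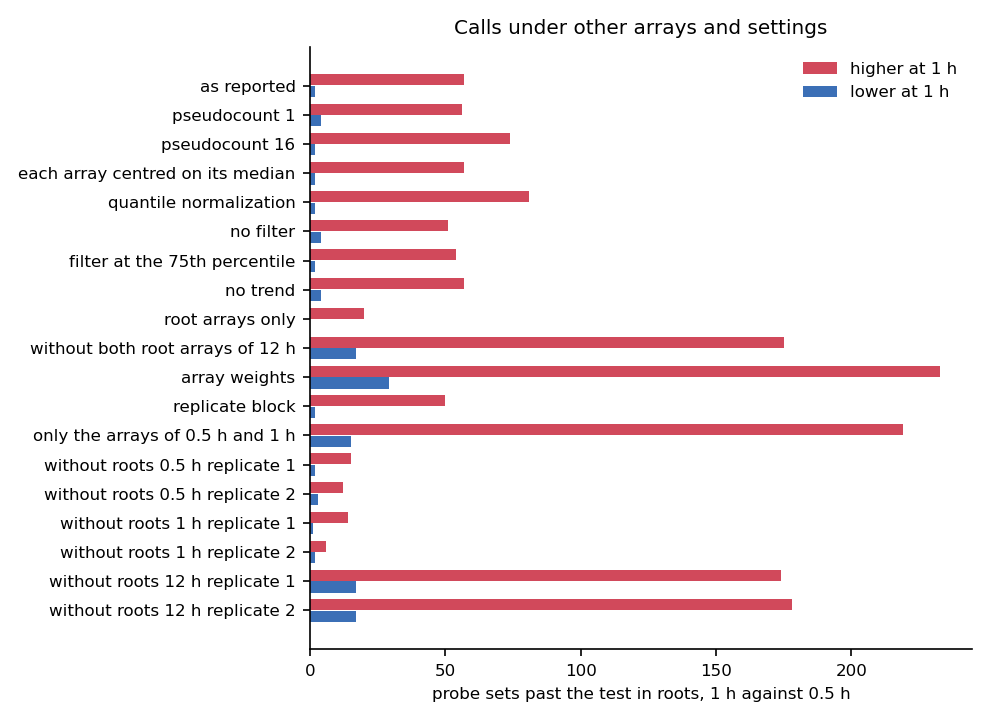
Number of probe sets past the test in roots at 1 h against 0.5 h (bars from 0, red higher, blue lower) under the reported fit, other settings, and without single arrays of roots at 0.5, 1 and 12 h. The higher count runs from 6 without roots 1 h replicate 2 to 233 with array weights.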

How the data were processed

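RNA of roots and shoots was measured on ATH1 arrays, 24 in 12 groups of 2. The series table deposited by the authors holds linear intensity signals. The submitters' processing notes name MAS5, with a version not given in the sources used here. Of 22810 probe sets, 64 controls were left out. A pseudocount of 2.205, the 10th percentile, was added before log2, without rescaling the arrays. To be tested, a probe set needed 2 arrays at 41.7, the overall median, or more, and 15199 passed.

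One model of 12 group means was fitted to all arrays in limma 3.58.1 (lmFit, then eBayes with a variance trend; R 4.3.3), giving 12 residual and 4.15 prior degrees of freedom. Two-sided p-values were adjusted per contrast by the Benjamini-Hochberg method. The procedure was tested on simulated data in which all groups shared the same spread per probe set. That test therefore does not cover a pair as far apart as the root arrays of 12 h. Plots used matplotlib 3.10.9 and Python 3.11.15.

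Probe sets were named through the platform annotation and RefSeq's TAIR10.1 gene table: 13513 pair with 1 gene, 503 with several and 8794 with none, and 13436 matched by gene identifier. Only probe sets of 1 gene were named. The named genes were all called ones with a symbol, up to 15 highest and 15 lowest called locus codes, the 8 lowest uncalled symbols with separate arrays, up to 3 members per list by lowest p, 5 highest and 5 lowest of the interaction, the reference genes and the abscisic acid, SOS and clock members; members given only as further examples of a list were picked with their values known. The 35 lists use 1 probe set per gene, the brightest, and nuclear loci only. The members and lists were chosen with earlier results of these data known. Same-numbered arrays of 0.5 and 1 h did not deviate together (r = 0.05 in roots, -0.01 in shoots), so replicate numbers were not used as pairs. Alternatives were other pseudocounts, scalings, filters and limits, no trend, array weights, a replicate block, other sets of arrays and each array left out in turn.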

Additional observations from a re-analysis of the deposited data

Results flagged for a closer look

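The change from 0.5 to 1 h differed between roots and shoots, by limma's interaction test, at 188 probe sets that were higher in roots and 31 that were lower. Of the 31, 16 were higher in shoots, 1 was lower in roots and 14 were neither. The 5 highest differences of single genes were AT2G20670 at 5.28, AT1G33055 at 4.48, AT1G68620 at 4.23, AT2G25735 at 3.74 and AT3G62950 at 3.73 on the log2 scale. In AT2G20670 the shoot signals were 899 and 1001 at 0.5 h and 65.6 and 2.31 at 1 h, while the root signals stayed between 29.4 and 57.9. In AT1G33055 the shoots went from 79.7 and 131 to 3.80 and 2.76, with roots at 357 and 174 and then 334 and 252. AT2G25735 read 104 and 65.3 and then 221 and 268 in roots, against 99.5 and 143 and then 25.5 and 22.8 in shoots. AT1G68620 had shoot signals under 41.7, the filter level, on all 4 arrays, so the size of its difference is uncertain. AT3G62950 was near 0 in roots on all 4 arrays, so its difference is that of the shoots.

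The 5 lowest were AT1G20070 at -2.43, AT3G44450 at -2.04, AT4G33040 at -1.95, AT1G62030 at -1.78 and AT1G77280 at -1.77. In AT1G20070 the shoots went from 24.3 and 23.6 to 123 and 168, while the root signals stayed between 176 and 262. The calls of AT3G62950 and AT2G25735 were lost with a pseudocount of 1 (adjusted p = 0.111 and 0.0681 by limma), and that of AT2G20670 with only the arrays of 0.5 and 1 h (adjusted p = 0.0634). When each of the 8 arrays of these times was left out in turn, AT1G20070, AT3G44450, AT1G33055 and AT1G68620 kept their calls, and the other 6 lost theirs without 1 or more of them. Groups of 2 arrays were not tested for outlying arrays.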

How the results depend on the processing

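All 59 called probe sets kept their sign in the 36 other fits that measured them. So did the 75 named genes whose root difference was refitted. JRG21, AT4G33980 and GI were not among the 75, so their signs were not checked in this way. Most counts moved, and the cause was not tested. For roots, 57 higher and 2 lower became 20 and 0 with only the root arrays of all times (698 and 478 at an unadjusted p under 0.05). They became 175 and 17 without both root arrays of 12 h, and 233 and 29 with array weights. With only the 4 root arrays of 0.5 and 1 h they were 219 and 15, and at an adjusted p under 0.10 they were 89 and 6. The lower count was 4 with a pseudocount of 1, with no filter and with no trend. Leaving out each array in turn gave 6 to 178 higher and 1 to 17 lower in roots, 150 to 452 calls in shoots and 76 to 508 for the interaction; a lone array was then assumed to vary like the other groups. In shoots 336 calls became 544 with no fold limit. The interaction's 219 became 510 without both root arrays of 12 h, 610 with array weights, 533 with only the arrays of 0.5 and 1 h and 364 at an adjusted p under 0.10. Other scalings gave 57 and 81 higher in roots. With the replicate block, 50 were higher and 2 lower in roots, with 327 calls in shoots and 205 for the interaction; scpl30, AT2G47950, AT5G56980 and AT5G16010 were not called in it. Of the 59 root calls, 36 were lost whichever of the 4 root arrays was left out. Signals near background limit the dim genes, such as ECS1 and scpl30.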
